A study of Homo sapiens with 3 samples.

Results

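The genes that build caveolae were followed, with PLVAP and NOS3, across 3 sorted populations of human cells. The 9 genes were taken by symbol from the deposited tables: the caveolins CAV1 and CAV2, the cavins CAVIN1 (formerly PTRF), CAVIN2 (formerly SDPR) and CAVIN3 (formerly PRKCDBP), the neck ATPase EHD2, the membrane-bending protein PACSIN2, the diaphragm protein PLVAP and the endothelial nitric oxide synthase NOS3. All 9 were present, of 18345 genes in each table, and all 9 reached 1 FPKM in at least 1 library. The genes were taken by symbol.

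The cells were derived from the human embryonic stem cell line H1, an established line. Differentiation towards blood began with 2 days in activin A (40 ng/ml) plus BMP4 (50 ng/ml) and went on with 3 days in VEGF (40 ng/ml) plus bFGF (50 ng/ml). They are labelled as day 4, although these stages add up to more. All groups are CD31+CD34+ cells, called HEPs in the labels, and differ in surface CD105 (endoglin, a co-receptor for TGF-beta and BMP ligands that endothelial cells carry): CD105high, CD105low and CD105neg. The same line, cytokines and gate apply to every group, no allele or further agent is named, and nothing in the labels says whether more than 1 culture was pooled.

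Each population was measured by RNA-seq in 1 library, so no difference below has a replicate check, no standard deviation or p-value can be given, and every comparison is one between libraries. In bulk samples fewer cells that express a gene and less RNA per cell cannot be told apart. The unit of the values was taken to be FPKM, a fragment count scaled to transcript length and to the size of the library. A gene is called measured when any library reaches 1 FPKM (11343 genes), and it is called higher or lower in a pair of libraries when FPKM + 1 differs at least 1.5-fold, which is 0.585 on the log2 scale. Adding 1 shrinks the fold of a low gene below its plain ratio. ENG, which encodes CD105, stood at 13.8 FPKM in CD105high, 8.56 FPKM in CD105low and 2.12 FPKM in CD105neg, in the order of the sort, although the value column of the CD105neg library carries a name that reads as CD105 positive. The gate genes PECAM1 and CD34 were found in all 3 libraries, at 50.1 and 43.2 FPKM in CD105high, 41.9 and 39.2 FPKM in CD105low, and 29.9 and 21.0 FPKM in CD105neg.

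Caveolae are small flask-shaped pits of the plasma membrane that are abundant in mature endothelium. Caveolin-1, with caveolin-2 as its partner, inserts into the inner leaflet, and cavin-1 coats the bulb and is needed for the pit to form; cavin-2 and cavin-3 join that coat. EHD2 rings the neck, PACSIN2 senses and drives curvature, and PLVAP closes the openings of caveolae and of fenestrae with a diaphragm of radial fibrils. NOS3 resides in caveolae, where caveolin-1 restrains it until calcium in the cell rises.

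The promoters of PLVAP and NOS3 are shown because both genes are characteristic of endothelium, and PLVAP passed the fold rule while NOS3 did not. Each sequence is the 250 bases before the first listed RefSeq start, 5′ to 3′ on the gene's strand, from the RefSeq table on GRCh38.p14: chr19:17377343-17377592, minus strand, for PLVAP and chr7:150993532-150993781, plus strand, for NOS3. Capitals mark matches, on either strand, to CAGGAA and CCGGAA, which hold the GGAA core of ETS factors, and to GGGCGG, the GC box. No match of one motif overlapped a match of another in these windows.
PLVAP: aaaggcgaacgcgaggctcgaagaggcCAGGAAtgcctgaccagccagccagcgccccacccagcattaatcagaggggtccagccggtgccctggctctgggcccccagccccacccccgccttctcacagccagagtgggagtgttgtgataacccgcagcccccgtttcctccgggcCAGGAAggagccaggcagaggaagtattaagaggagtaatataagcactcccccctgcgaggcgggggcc
NOS3: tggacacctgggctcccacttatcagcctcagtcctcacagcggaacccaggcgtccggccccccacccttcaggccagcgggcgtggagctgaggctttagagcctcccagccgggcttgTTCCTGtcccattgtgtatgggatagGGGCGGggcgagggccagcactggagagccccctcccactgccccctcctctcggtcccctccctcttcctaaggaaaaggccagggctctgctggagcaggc

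The PLVAP window held CAGGAA at 2 places and the NOS3 window at 1, beside 1 GC box in the NOS3 window. Over 27305 genes in the same table, non-coding genes included, 24.1% of such windows held CAGGAA, 14.8% held CCGGAA and 42.3% held GGGCGG. None of these matches is evidence of binding, and a motif that is missing says only that its letters are not in this window.

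The genes for both caveolins, for cavin-3 and for the diaphragm protein were higher in CD105high than in CD105neg, and none of the 9 was called lower. PLVAP, CAV2, CAV1 and CAVIN3 passed the 1.5-fold rule, which makes 4 of 9, where 5.65% of all measured genes were called higher and 6.88% lower. The median log2 fold change of the 9 genes was 0.53, against -0.09 over all measured genes. CAVIN1 and PACSIN2 lay just under the rule at 0.53 each and were above it once the median of all genes was set to 0 (0.62 each). That centring also moved the split of all measured genes, to 7.38% higher and 4.50% lower.

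**Figure D1:**
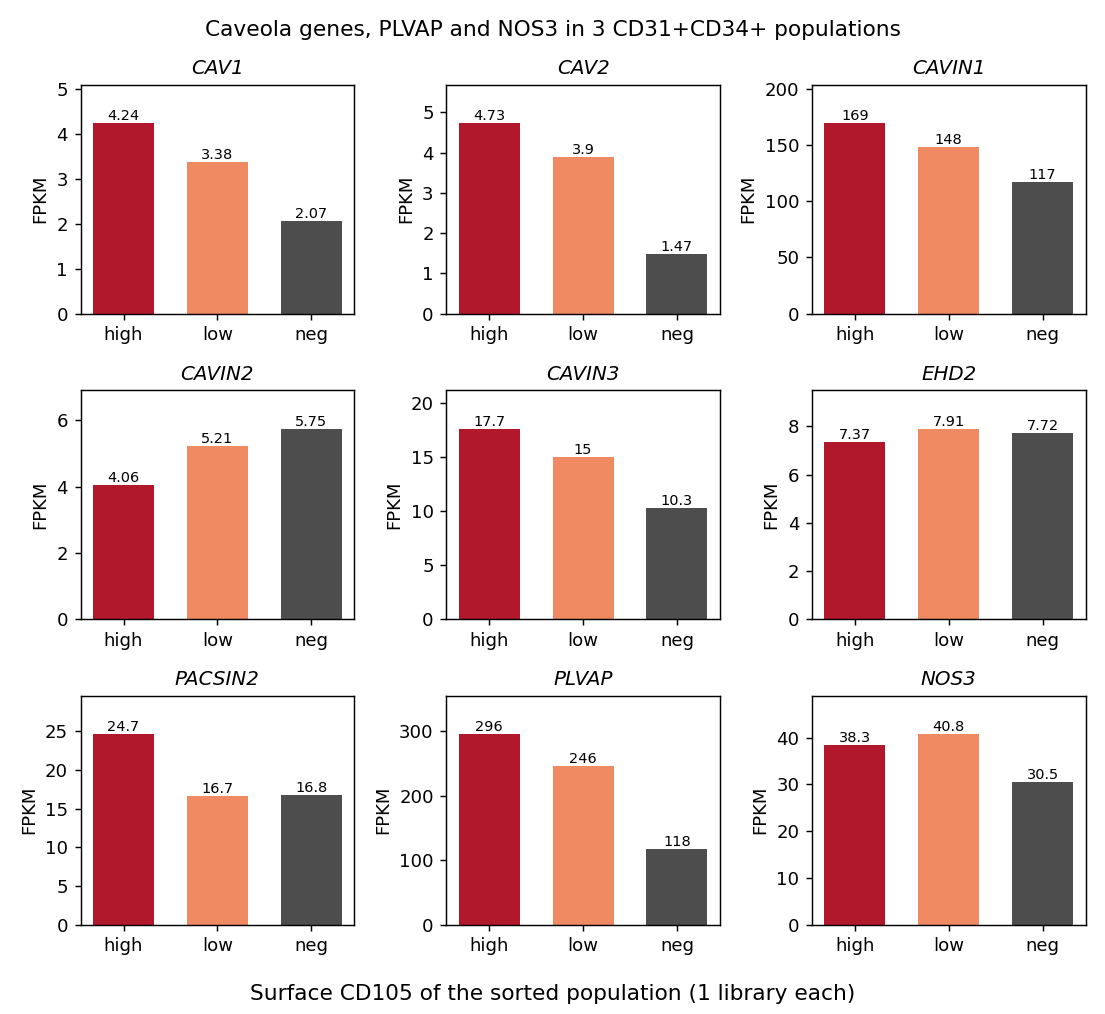
Levels of the 9 genes in FPKM (each vertical axis starts at 0 and has its own scale), with 1 bar per sorted population and 1 library behind each bar. CAV1, CAV2, CAVIN1, CAVIN3 and PLVAP step down with surface CD105, CAVIN2 steps the other way, and the caveolins stand at under 5 FPKM while CAVIN1 and PLVAP exceed 100 FPKM in every library.

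The caveolins had the same order as the sort and were low in every library. CAV1 (ENSG00000105974.11), the structural core of the caveola, stood at 4.24 FPKM in CD105high, 3.38 FPKM in CD105low and 2.07 FPKM in CD105neg. By level CAV1 ranked 8212 in CD105high, 8975 in CD105low and 9920 in CD105neg among the 18345 genes, so a large share of all genes was above it in each population. Its log2 fold change was 0.77 in CD105high against CD105neg, a plain ratio of 2.06, and 0.52 in CD105low against CD105neg, under the rule. With 5 added in place of 1 the first was 0.39, under the rule, and with 0.1 added the second was 0.69, past it.

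CAV2 (ENSG00000105971.14), which is held to need caveolin-1 to reach the cell surface, stood at 4.73 FPKM in CD105high, 3.90 FPKM in CD105low and 1.47 FPKM in CD105neg. Most of its difference lay between CD105neg and the other 2 populations: the log2 fold change was 1.21 for CD105high and 0.99 for CD105low, each against CD105neg, and 0.23 between CD105high and CD105low. With 5 added in place of 1, CD105low was under the rule (0.46). The level of CAV2 was 1.11 times that of CAV1 in CD105high and 1.15 times in CD105low, but 0.71 times in CD105neg, so the order of the 2 caveolins was not the same in all libraries.

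Both caveolin genes lie next to each other on chromosome 7 in the GENCODE annotation. The nearest measured genes on either side, TES and CAPZA2, did not share their direction; MET, which lies before CAPZA2, was not measured, at 0.81 FPKM in CD105high, 0.47 FPKM in CD105low and 0.62 FPKM in CD105neg. TES, a focal adhesion protein gene, stood at 11.4 FPKM in CD105high, 11.1 FPKM in CD105low and 16.1 FPKM in CD105neg. CAPZA2, which encodes an actin-capping subunit, stood at 35.9 FPKM in CD105high, 41.6 FPKM in CD105low and 57.6 FPKM in CD105neg. For CD105high against CD105neg the log2 fold change was -0.46 for TES, under the rule, and -0.67 for CAPZA2, past it on the deposited scale and just under it on centring (-0.58).

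Because the caveolins are low, counting error matters most for them. For genes with 1 annotated transcript, low values multiplied by transcript length clustered on multiples of a step, of 0.0125 FPKM times kilobases in CD105high, 0.0118 in CD105low and 0.0131 in CD105neg. If 1 step is 1 fragment, which the sources used here do not say, CAV1 corresponds to between 189 and 1085 fragments in CD105high, 160 and 920 in CD105low, and 88 and 506 in CD105neg, for its shortest and longest coding transcript. For CAV2 the same bounds were 293 and 1247 in CD105high, 257 and 1094 in CD105low, and 87 and 372 in CD105neg. No sampled piece of CAV1 sequence and 0.57% of CAV2 sequence also occurred in another gene.

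The cavins did not move as a block: CAVIN1 and CAVIN3 were highest in CD105high, and CAVIN2 was highest in CD105neg. CAVIN1 (ENSG00000177469.12), whose product is needed for caveola formation, stood at 169 FPKM in CD105high, 148 FPKM in CD105low and 117 FPKM in CD105neg. It was among the abundant transcripts of these cells, at rank 222 in CD105high, 268 in CD105low and 354 in CD105neg. The log2 fold change was 0.53 in CD105high against CD105neg and 0.33 in CD105low against CD105neg, both under the rule on the deposited scale.

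CAVIN3 (ENSG00000170955.9), a cavin that binds protein kinase C delta, stood at 17.7 FPKM in CD105high, 15.0 FPKM in CD105low and 10.3 FPKM in CD105neg. Its log2 fold change of 0.72 in CD105high against CD105neg passed the rule, and that of 0.50 in CD105low against CD105neg did not; with 5 added in place of 1 the first was 0.57, just under the rule. This value is uncertain, since 44.0% of the sampled CAVIN3 sequence also occurs in another gene: a processed transcript on the opposite strand, AC068733.3, covers 33.3% of its exon bases, and the libraries do not keep the strand.

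CAVIN2 (ENSG00000168497.4), which binds phosphatidylserine and promotes membrane tubules, stood at 4.06 FPKM in CD105high, 5.21 FPKM in CD105low and 5.75 FPKM in CD105neg. It was the only one of the 9 with the reverse of the sort order, an order that 36.4% of all measured genes showed. Its log2 fold change of -0.42 in CD105high against CD105neg did not reach the rule, and an antisense gene, AC098617.1, covers 7.22% of its exon bases. The muscle cavin gene CAVIN4 differed little, at 3.16 FPKM in CD105high, 2.97 FPKM in CD105low and 2.90 FPKM in CD105neg. The summed FPKM of the 4 cavins was 194 in CD105high, 171 in CD105low and 136 in CD105neg. CAVIN1 made up 87.2% of that sum in CD105high, 86.5% in CD105low and 86.1% in CD105neg, so its share was close to constant.

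The gap between cavin and caveolin transcripts was wide. CAVIN1 stood at 39.9 times the level of CAV1 in CD105high, 43.8 times in CD105low and 56.8 times in CD105neg. The ratio was therefore smallest in CD105high, although all 3 libraries had far more CAVIN1 than CAV1. CAV3, the muscle caveolin gene, was listed at 0 in all 3 libraries, so CAV1 and CAV2 were the only caveolin genes with a value above 0.

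PLVAP (ENSG00000130300.8) was the most abundant of the 9 genes. On the FPKM + 1 scale it also had the highest fold in CD105high against CD105neg, whereas with 0.1 added in place of 1 the log2 fold change of CAV2 was higher (1.62 for CAV2 and 1.33 for PLVAP). It stood at 296 FPKM in CD105high, 246 FPKM in CD105low and 118 FPKM in CD105neg, at rank 110 of all genes in CD105high, 149 in CD105low and 348 in CD105neg. As with CAV2, the step was between CD105neg and the rest: the log2 fold change was 1.32 for CD105high and 1.05 for CD105low against CD105neg, and 0.27 between CD105high and CD105low. PLVAP was 1.75 times as high as CAVIN1 in CD105high and 1.66 times in CD105low, but level with it in CD105neg (1.01 times). No sampled piece of its sequence was shared with another gene, and no annotated gene overlapped its exons.

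Levels were also set against CDH5, the cadherin of endothelial junctions, within each library. PLVAP stood at 3.14 times CDH5 in CD105high, 3.09 times in CD105low and 2.46 times in CD105neg. CAV1 stood at 0.045 times CDH5 in CD105high, 0.043 times in CD105low and 0.043 times in CD105neg, so CAV1 and CDH5 differed between populations by nearly the same factor. CAVIN1 went the other way relative to CDH5, at 1.80 times in CD105high, 1.86 times in CD105low and 2.44 times in CD105neg, as did NOS3, at 0.41 times in CD105high, 0.51 times in CD105low and 0.63 times in CD105neg.

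NOS3 (ENSG00000164867.10) stood at 38.3 FPKM in CD105high, 40.8 FPKM in CD105low and 30.5 FPKM in CD105neg, so it was highest in the middle population. The log2 fold change was 0.32 for CD105high and 0.41 for CD105low against CD105neg, neither past the rule. CD105high and CD105low differed by -0.09, whose sign turns to 0.01 when the median of all genes is set to 0. Of its sampled sequence 14.1% is shared with other genes, and ATG9B on the opposite strand overlaps 13.2% of its exon bases; ATG9B itself stood at 0.13 FPKM in CD105high, 0.36 FPKM in CD105low and 0.51 FPKM in CD105neg.

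The neck and bending proteins parted. EHD2 (ENSG00000024422.11) was nearly level, at 7.37 FPKM in CD105high, 7.91 FPKM in CD105low and 7.72 FPKM in CD105neg. Its log2 fold change of -0.06 in CD105high against CD105neg changes sign, to 0.03, on centring. PACSIN2 (ENSG00000100266.18) stood highest in CD105high, at 24.7 FPKM, against 16.7 FPKM in CD105low and 16.8 FPKM in CD105neg. It is the gene of the 9 with the largest difference between CD105high and CD105low, a log2 fold change of 0.54 that passes the rule after centring (0.64). PACSIN2 shares 3.4% of its exon bases with ARFGAP3 on the same strand. ARFGAP3 stood at 18.8 FPKM in CD105high, 19.5 FPKM in CD105low and 19.6 FPKM in CD105neg.

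**Figure D2:**
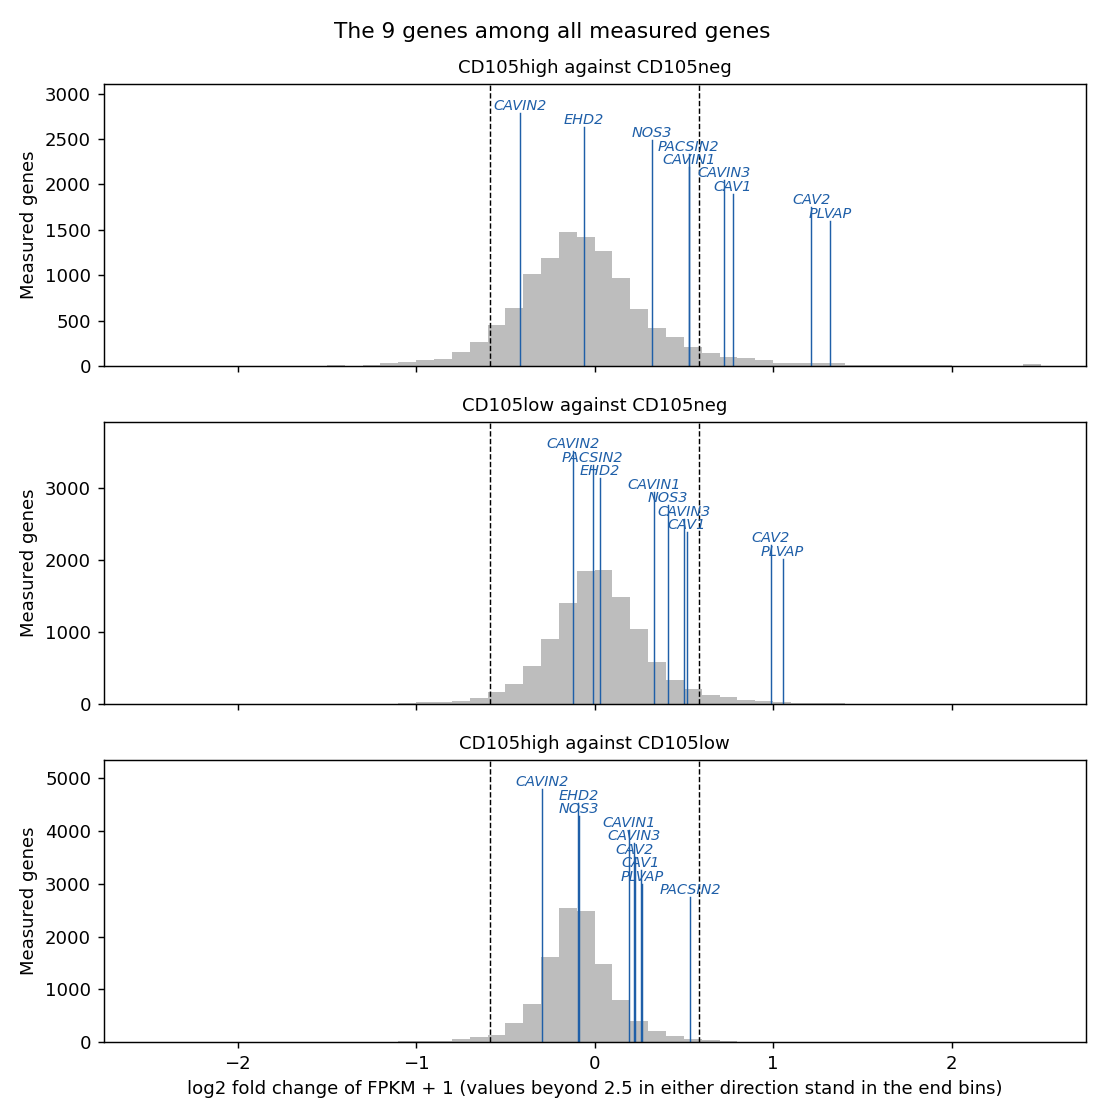
Histograms of the log2 fold change of FPKM + 1 over 11343 measured genes in the 3 pairs of libraries (vertical axis, number of genes), with the 9 genes marked by blue lines and the 1.5-fold rule by dashed lines. PLVAP and CAV2 stand to the right of the dashed line in both comparisons with CD105neg, and all 9 genes stand between the dashed lines for CD105high against CD105low.

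In CD105low against CD105neg, 2 of the 9 genes, PLVAP and CAV2, were called higher, where 4.13% of all measured genes were, and none was called lower, where 2.18% were. CAV1 at 0.52 and CAVIN3 at 0.50 were the next. The median of the 9 was 0.41, against 0.02 over all measured genes. This comparison shares its CD105neg library with the previous one.

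Between CD105high and CD105low none of the 9 was called in either direction, where 1.18% of all measured genes were called higher and 2.19% lower. The 9 log2 fold changes ran between -0.30 for CAVIN2 and 0.54 for PACSIN2, with a median of 0.22 against -0.10 over all measured genes. Across the 3 libraries, CAV1, CAV2, CAVIN1, CAVIN3 and PLVAP had the order CD105high above CD105low above CD105neg, which is 5 of 9 genes, against 17.6% of all measured genes.

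The closest paralogs of EHD2 and PACSIN2 differed among themselves. EHD4, an ATPase of early endosomes, stood at 14.6 FPKM in CD105high, 10.8 FPKM in CD105low and 6.86 FPKM in CD105neg (log2 fold change of CD105high against CD105neg 0.99). EHD1, which acts in endocytic recycling, had the reverse order, at 9.24 FPKM in CD105high, 14.7 FPKM in CD105low and 16.0 FPKM in CD105neg (-0.73). EHD3 was nearly level, at 9.45 FPKM in CD105high, 10.3 FPKM in CD105low and 9.74 FPKM in CD105neg. The 4 EHD genes summed to 40.7 FPKM in CD105high, 43.7 FPKM in CD105low and 40.3 FPKM in CD105neg. Their sum thus hardly differed, while the ratio of EHD4 to EHD1 was 1.58 in CD105high, 0.73 in CD105low and 0.43 in CD105neg.

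PACSIN3, a paralog that also takes part in caveola formation, stood at 19.2 FPKM in CD105high, 21.4 FPKM in CD105low and 25.8 FPKM in CD105neg. The ratio of PACSIN2 to PACSIN3 was 1.28 in CD105high, 0.78 in CD105low and 0.65 in CD105neg, so PACSIN2 was the higher of the 2 only in the CD105high library. The neuronal PACSIN1 was listed at 0 in CD105high and stood at 0.09 FPKM in CD105low and 0.16 FPKM in CD105neg.

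**Figure D3:**
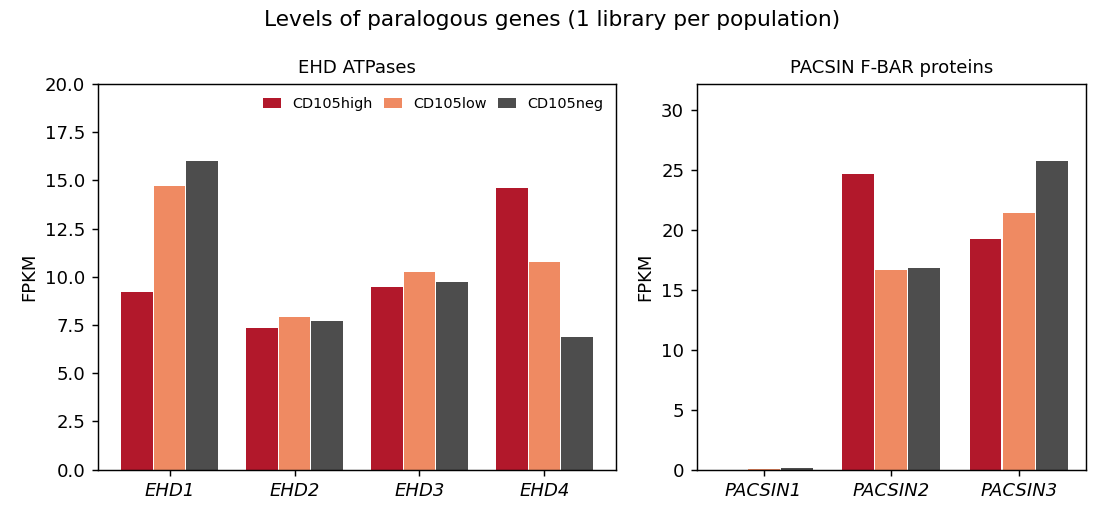
Levels in FPKM of the EHD and PACSIN genes, with 1 bar per library. EHD4 and PACSIN2 are highest in CD105high while EHD1 and PACSIN3 are lowest there, and EHD2 and EHD3 are nearly level.

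Of 15 relatives of the caveola genes (other caveolin, cavin, EHD and PACSIN genes, dynamins, flotillins and a few more), 13 were measured. In CD105high against CD105neg, EHD4 was called higher and EHD1 and MFSD2A lower, with a median of -0.04. Over all measured genes 5.65% were called higher and 6.88% lower in that pair. MFSD2A, a lipid transporter that limits caveolar transcytosis in the brain endothelium of mice, stood at 1.41 FPKM in CD105high, 2.05 FPKM in CD105low and 2.79 FPKM in CD105neg, and was under the rule on centring (-0.57). With 5 added in place of 1, EHD1 (-0.56) and MFSD2A (-0.28) were both under the rule. None of the 13 was called in CD105low against CD105neg, beside 4.13% higher and 2.18% lower over all measured genes. EHD4 lay within rounding of the rule in that pair and was past it with 0.1 added (0.64). Only EHD1 (-0.62) was called in CD105high against CD105low, beside 1.18% higher and 2.19% lower over all measured genes. Centring took it under the rule (-0.52). The flotillins, scaffold proteins of membrane domains without caveolin, differed little: FLOT1 stood at 40.6 FPKM in CD105high, 37.3 FPKM in CD105low and 36.6 FPKM in CD105neg, and FLOT2 at 29.4 FPKM in CD105high, 28.8 FPKM in CD105low and 23.7 FPKM in CD105neg.

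In the list of nitric oxide pathway genes 18 of 22 were measured, and 1, NOS2, was called higher and 2 lower in CD105high against CD105neg (median -0.29), beside 5.65% higher and 6.88% lower over all measured genes. NOS2, the inducible nitric oxide synthase, stood at 9.72 FPKM in CD105high, 6.92 FPKM in CD105low and 2.72 FPKM in CD105neg, with log2 fold changes of 1.53 for CD105high and 1.09 for CD105low against CD105neg. NOS3 was thus 3.94 times as high as NOS2 in CD105high, 5.89 times in CD105low and 11.2 times in CD105neg. NOS1, the neuronal form, stayed at or under 0.04 FPKM.

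The 2 genes called lower in CD105high against CD105neg were SPR, an enzyme that makes the NOS cofactor tetrahydrobiopterin, and NOSTRIN, which moves NOS3 away from the membrane. SPR stood at 9.89 FPKM in CD105high, 12.5 FPKM in CD105low and 15.8 FPKM in CD105neg. NOSTRIN stood at 5.50 FPKM in CD105high, 7.57 FPKM in CD105low and 8.88 FPKM in CD105neg. Both were under the rule on centring, at -0.54 and -0.51, so these 2 calls rest on the scale of the libraries. In CD105low against CD105neg NOS2 was called higher and none lower (median -0.08), beside 4.13% higher and 2.18% lower over all measured genes. DDAH1, which breaks down an inhibitor of NOS, was just under the rule at -0.58 and past it on centring (-0.59) and with 0.1 added (-0.63). None of the 18 was called between CD105high and CD105low (median -0.22), beside 1.18% higher and 2.19% lower over all measured genes. GCH1, another gene of the list, was just under the rule in that pair at -0.57. It was past the rule with 0.1 added (-0.73) and further under it on centring (-0.48).

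**Figure D4:**
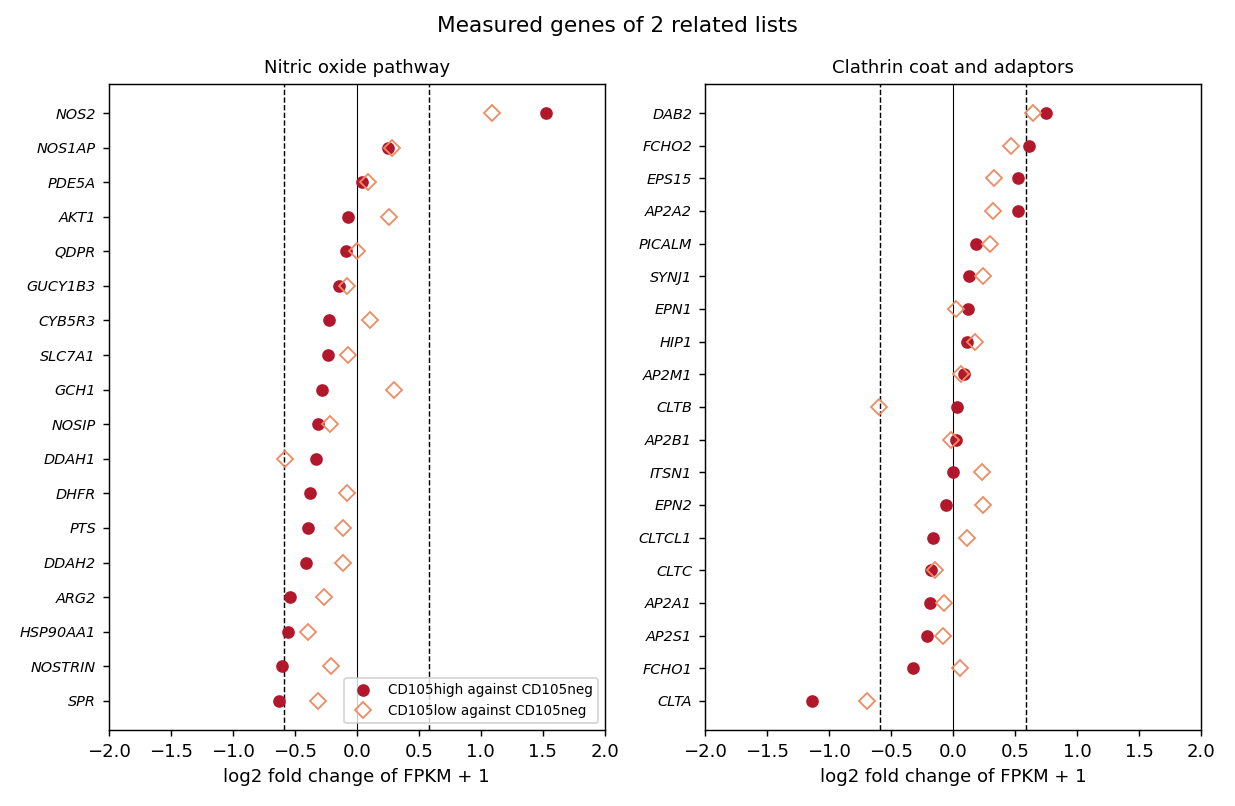
Log2 fold change of FPKM + 1 for the measured genes of the nitric oxide list (18) and the clathrin list (19), in CD105high (filled circles) and CD105low (open diamonds), each against CD105neg, with dashed lines at the 1.5-fold rule. NOS2 stands apart at the top of the first list and CLTA at the bottom of the second.

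Clathrin, the coat of the main alternative route of uptake, was compared with the same rule. All 19 genes of the clathrin list were measured, and in CD105high against CD105neg DAB2 and FCHO2 were called higher and CLTA lower (median 0.03), beside 5.65% higher and 6.88% lower over all measured genes. DAB2, an adaptor for lipoprotein receptors, stood at 39.7 FPKM in CD105high, 36.8 FPKM in CD105low and 23.2 FPKM in CD105neg. FCHO2, which helps to start clathrin pits, stood at 5.71 FPKM in CD105high, 5.09 FPKM in CD105low and 3.40 FPKM in CD105neg. With 5 added in place of 1, FCHO2 was under the rule in CD105high against CD105neg (0.35) and DAB2 was past it (0.66). CLTA, a clathrin light chain, stood at 58.2 FPKM in CD105high, 79.7 FPKM in CD105low and 129 FPKM in CD105neg, a log2 fold change of -1.14 for CD105high.

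The heavy chain CLTC differed little, at 72.5 FPKM in CD105high, 74.3 FPKM in CD105low and 82.3 FPKM in CD105neg. The second light chain, CLTB, was lowest in the middle population, at 30.7 FPKM in CD105high, 19.6 FPKM in CD105low and 30.1 FPKM in CD105neg. In CD105low against CD105neg DAB2 was called higher and CLTA and CLTB lower (median 0.11), beside 4.13% higher and 2.18% lower over all measured genes. In CD105high against CD105low CLTB was called higher and none lower (median -0.06), beside 1.18% higher and 2.19% lower over all measured genes. With 5 added in place of 1, DAB2 (0.57) and CLTB (-0.51) were under the rule in the first pair. The same held for CLTB (0.54) in the second pair. With all genes centred, AP2A2 and EPS15 joined DAB2 and FCHO2 as higher in CD105high against CD105neg, at 0.61 each.

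The same rule was applied to marker lists for endothelium and for other cell types that this gate may contain. Over all measured genes 5.65% were called higher and 6.88% lower in CD105high against CD105neg. Of 18 pan-endothelial genes, 14 were called higher and 1, ICAM2, lower in CD105high against CD105neg (median 0.81). The 14 include ENG, which encodes the CD105 of the sort, so its call is not independent of the sort. The gate genes PECAM1 and CD34 are also among them. The summed level of the 18 was 2251 FPKM in CD105high, 2166 FPKM in CD105low and 1595 FPKM in CD105neg, with no gene at 0. Of 15 mesenchymal and mural genes, which mark cells that also carry caveolae, 12 were measured. Of these 1, THY1, was called higher and 5, PDGFRB, COL1A1, COL3A1, TAGLN and CSPG4, lower. The 15 genes summed to 1656 FPKM in CD105high, 1799 FPKM in CD105low and 1727 FPKM in CD105neg. VIM was the largest part of each sum, at 964 FPKM in CD105high, 982 FPKM in CD105low and 881 FPKM in CD105neg. DCN, a fibroblast gene, was near 0, whereas COL1A2 stood at 177 FPKM in CD105high, 199 FPKM in CD105low and 216 FPKM in CD105neg. Of 19 erythroid and megakaryocyte genes 11 were measured and all 11 were called lower, with sums of 15.9 FPKM in CD105high, 31.9 FPKM in CD105low and 83.7 FPKM in CD105neg, and 5 of 8 leukocyte genes were measured, with 2 called lower and sums of 43.8 FPKM in CD105high, 56.1 FPKM in CD105low and 65.4 FPKM in CD105neg. Among the 6 pluripotency and epithelial genes analysed, CDH1 was called lower and none higher, with sums of 84.1 FPKM in CD105high, 94.3 FPKM in CD105low and 103 FPKM in CD105neg. The part of such differences in the caveola results was not tested.

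Genes with the pattern nearest to that of CAV1, PLVAP and NOS3 were searched among genes that reached 10 FPKM in any library, by the distance between log2(FPKM + 1) profiles after each profile's mean was subtracted. With 3 libraries such a profile holds little information, so a small distance says little about a shared role. The 5 nearest to CAV1, of 5910 candidates, were NEK3, KIF5B, DSC2, TIE1 and ESAM, at distances between 0.010 and 0.014, and 64 genes lay within 0.1. TIE1, an endothelial receptor, stood at 132 FPKM in CD105high, 112 FPKM in CD105low and 77.9 FPKM in CD105neg. ESAM, an endothelial adhesion molecule, stood at 42.9 FPKM in CD105high, 36.1 FPKM in CD105low and 25.0 FPKM in CD105neg. CAV1 itself was under the 10 FPKM asked of candidates, so adding 1 shrinks its fold more than that of TIE1 or ESAM. The plain ratio of CD105high to CD105neg was 2.06 for CAV1, 1.70 for TIE1 and 1.72 for ESAM. Their match with CAV1 therefore holds on the FPKM + 1 scale and is not a match in plain fold. Nearest to PLVAP were IFI16, LRIG3, ENTPD1, PMAIP1 and MAPK11, at distances between 0.024 and 0.044, with 16 genes, 0.27% of the candidates, within 0.1. IFI16 stood at 179 FPKM in CD105high, 146 FPKM in CD105low and 71.4 FPKM in CD105neg. Among the 5 nearest to NOS3 were GABARAPL2, WASL, TMX3 and FAM3C, and 250 genes, 4.23% of the candidates, lay within 0.1.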

How the data were processed

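RNA-seq values of 3 libraries (CD105high, CD105low and CD105neg, 1 each) were used as deposited. Per the labels' protocols, an Illumina TruSeq kit that keeps no strand information was used on 2 ug of RNA. BWA, Bowtie, RSEM and hg19 appear in the submitters' processing notes, with no version or role; the annotation and any filter were not stated in the sources used here. The unit is not named: the deposited values were treated as FPKM, scaled by the authors by transcript length and library size, and TPM cannot be told apart from it. FPKM summed to 265618 in CD105high, 284824 in CD105low and 289229 in CD105neg. If steps between low values mark fragments, CD105high was 1.04 times and CD105low 1.11 times as deep as CD105neg (37.3% to 39.2% of values within 0.04 of a step, against 5.90% to 7.10% at other steps). The number of reads is not given, so no interval is.

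Genes were matched by symbol, and log2 fold changes of FPKM + 1 were computed for all genes with Python 3.11.15, numpy 2.4.6 and pandas 2.3.3, tested on simulated data. Lengths, overlaps and shared sequence (50-base pieces every 40 bases) came from GENCODE release 29 (18317 genes matched), on another build than hg19, so no coordinates of genes are given. Promoter windows came from RefSeq and were in the table for 7 of the 9 genes. Members and lists were chosen with earlier results of these data known. Named were the 9 genes, their closest paralogs, up to 4 called genes per list and pair, the gate genes, the nearest measured neighbours of the caveolins and the 5 most similar patterns of 3 genes; the levels of other genes of the same families were named after their values were seen. Of the pluripotency list, 4 genes were not analysed here. Results of some genes that these rules would name are not reported here. Alternatives were other pseudocounts, filters, scalings and a 2-fold rule.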

Additional observations from a re-analysis of the deposited data

How the results depend on the processing

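The sign of the log2 fold change was the same on all scales tried for PLVAP, CAV1, CAV2, CAVIN1, CAVIN2 and CAVIN3 in the 3 pairs, while EHD2, NOS3 and PACSIN2 changed sign in pairs where they were nearly level. The count of called genes moved more. Of the 9, 4 were called higher in CD105high against CD105neg. The count was 2, CAV2 and PLVAP, both with a pseudocount of 5 and with a 2-fold rule. A filter at 10 FPKM also gave 2, CAVIN3 and PLVAP. Of the 9 genes it kept only CAVIN1, CAVIN3, PACSIN2, PLVAP and NOS3. CAV1 and CAV2, at 4.24 and 4.73 FPKM in CD105high, dropped out by their level and not by the fold rule. That count is therefore not comparable with 4 of 9. No share of all genes is given here for this filter or for the 2-fold rule. Centring all genes added CAVIN1 and PACSIN2 (0.62 each) to the 4. Over all measured genes 5.65% were called higher in this pair, 2.83% with a pseudocount of 5 and 7.38% on centring. In CD105low against CD105neg the count of 2 became 1, PLVAP, with a pseudocount of 5, where 1.83% of all measured genes were called higher. It was also 1, PLVAP, with a 2-fold rule and with the 10 FPKM filter, which leaves out CAV2. With a pseudocount of 0.1 CAV1 (0.69) joined the 2, where 6.01% of all measured genes were called higher. In CD105high against CD105low the count of 0 became 1, PACSIN2, with all genes centred or the libraries rescaled to the same sum. Over all measured genes 1.77% were called higher in this pair on centring and 1.72% on rescaling. No called value changed sign. In CD105high against CD105neg the nitric oxide list had no gene called lower with a pseudocount of 5 or with either change of scale. The relatives had 1 lower with either change of scale and 0 with a pseudocount of 5. Over all measured genes 2.42% were called lower in that pair with a pseudocount of 5, 4.50% on centring and 4.33% on rescaling. No replicate could be left out with 1 library in each group. No paired analysis was possible because each group has 1 library and the result comes from no test.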
